A study of Saccharomyces cerevisiae BY4741 with 2 samples.

Results

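The stable noncoding RNAs described here are 10 genes of the budding yeast Saccharomyces cerevisiae, out of 7134 rows of a table of sense-strand read counts. They were taken by name, not by a filter on measured values, but the list was chosen with earlier results of these data known. They are the spliceosomal RNAs U1 (row snR19), U2 (LSR1), U4 (snR14), U6 (snR6) and U5 (snR7-L and snR7-S, a long and a short form), the signal recognition particle RNA SCR1, the RNase P RNA RPR1, the RNase MRP RNA NME1 and the telomerase RNA TLC1. Levels were compared between a strain without DBP2, which encodes a DEAD-box RNA helicase, and a wild type, with 2 libraries per strain. The deletion strain is MATa with dbp2::KanMx in place of the gene, and is labelled ura3Δ0, leu2Δ0, his3Δ0, TRP1, met- and lysΔ. The wild type is MATa with the alleles his3Δ1, leu2Δ0, met15Δ0 and ura3Δ0. Both are labelled BY4741, and the labels describe growth to mid-log phase in rich glucose medium and 2 rounds of ribosomal RNA depletion. The strains differ in markers besides DBP2, so the deletion and the rest of the background cannot be told apart.

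Spliceosomal RNAs are the catalytic and base-pairing core of the machine that removes introns. U1 pairs with the 5′ splice site, U2 with the branch site, U5 holds the exons, and U6, which enters paired to U4, forms the active site once U4 is released. SCR1 is the scaffold of the particle that targets nascent secretory proteins to the endoplasmic reticulum. RPR1 and NME1 are the RNA subunits of related endonucleases, of which RNase P matures the 5′ ends of tRNAs and RNase MRP cuts the ribosomal RNA precursor. TLC1 carries the template from which telomerase copies telomeric repeats. In yeast, RNA polymerase III makes U6, SCR1 and RPR1, and RNA polymerase II makes the others.

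The sequences below are the RNA-like strand of the R64 genome, written as DNA, 5′ to 3′, and are shown because they carry the pairings by which these RNAs act or decide how reads could be assigned. For U4 and U6 the capitals mark the longest stretch of unbroken Watson-Crick complementarity between them, 11 bases at positions 1 to 11 of U4 and 70 to 80 of U6. For U1 the capitals mark ACTTACC in its first 60 bases, the stretch that faces the 5′ splice site, and for U2 they mark GTAGTA, which faces the branch site. For U5 they mark the 35 bases that only the long form has, and for TLC1 they mark CACCACACC, the start of the telomeric template. On the RNA-like strand, ACTTACC and CACCACACC each occur in 0.254% of the 394 nuclear noncoding RNA genes in the annotation, and GTAGTA occurs in 1.78%; the opposite strand was not searched.
snR14 (U4), chromosome V, 167427 to 167586, minus strand: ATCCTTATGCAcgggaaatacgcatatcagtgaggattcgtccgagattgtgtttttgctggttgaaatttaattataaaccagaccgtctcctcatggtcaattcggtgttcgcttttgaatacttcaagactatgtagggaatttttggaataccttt
snR6 (U6), chromosome XII, 366235 to 366346, plus strand: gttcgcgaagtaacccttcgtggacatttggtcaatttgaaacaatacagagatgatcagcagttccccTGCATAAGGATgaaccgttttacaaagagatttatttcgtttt
snR19 (U1), bases 1 to 60, chromosome XIV, 230613 to 230672, minus strand: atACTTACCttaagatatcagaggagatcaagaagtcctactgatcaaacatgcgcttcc
LSR1 (U2), bases 1 to 60, chromosome II, 681803 to 681862, minus strand: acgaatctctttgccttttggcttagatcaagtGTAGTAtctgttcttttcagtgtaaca
snR7-L (U5), chromosome VII, 939459 to 939672, minus strand: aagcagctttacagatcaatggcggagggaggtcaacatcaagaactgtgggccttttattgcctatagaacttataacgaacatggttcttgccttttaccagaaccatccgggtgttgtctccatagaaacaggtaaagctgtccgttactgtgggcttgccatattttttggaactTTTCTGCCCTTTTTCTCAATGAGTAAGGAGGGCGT
TLC1, bases 438 to 497, chromosome II, 308024 to 308083, plus strand: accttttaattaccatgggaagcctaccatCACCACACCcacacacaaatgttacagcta

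The libraries held 36028173 and 24961576 counts in the deletion strain and 10860000 and 12586037 in wild type. DBP2 had 66 and 237 counts in the deletion libraries and 7320 and 9662 in the wild-type libraries. Rows of snoRNAs took 13.2% and 15.03% of the deletion libraries, against 20.7% and 19.2% of the wild-type libraries, and rows of ribosomal RNA took 0.0630% to 0.390% of any library. Mitochondrial rows took 6.56% and 7.54% of the deletion libraries, against 2.84% and 2.65% of the wild-type libraries. Markers of MATa cells summed to 27728 and 20394 counts in the deletion libraries and 7445 and 9092 in wild type. Most of that sum came from STE6 and STE2. Of the MATa markers, BAR1 went the other way, with 687 and 473 counts in the deletion libraries against 691 and 664 in wild type. MFA1, MFA2, STE2, STE6 and AGA2 each had more counts in both deletion libraries. Markers of MATalpha cells summed to 481 and 255 against 37 and 31. Of the MATalpha markers, SAG1 had 426 and 233 counts in the deletion libraries against 34 and 27 in wild type. STE3 had 43 and 21 against 2 and 4, and MF(ALPHA)2 had 11 and 0 against 1 and 0. The alpha-factor gene MF(ALPHA)1 was at 0 or 1 count in all 4. These are raw counts, and the deletion libraries were the deeper ones. Counts of the replicate libraries differed by more than sampling error in each strain. The labels do not say that they came from separate cultures, so the p-values here rest on a spread between libraries that may be purely technical.

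The 10 RNAs together took 9.08% and 8.46% of the raw counts of the deletion libraries, against 7.14% and 6.72% of the wild-type libraries. These shares carry no TMM factors, which were 1.13 and 1.21 in the deletion libraries and 0.845 and 0.868 in wild type. The shares therefore do not show a higher total on the TMM scale, which divides by these factors. Levels are given as CPM (read counts scaled to library size with TMM factors) per kb of RNA, so that they can be set side by side. In the deletion strain the order was SCR1 (mean 63593 CPM per kb), snR19 (22067), LSR1 (16223), RPR1 (15694), NME1 (10022), snR14 (5921), snR7-L (837), snR6 (609) and TLC1 (30.7). In wild type it was SCR1 (89411), RPR1 (16339), LSR1 (14726), NME1 (14354), snR19 (9078), snR14 (1636), snR7-L (856), snR6 (656) and TLC1 (339). LSR1 and RPR1 overlapped in both strains, NME1 overlapped LSR1 in wild type, and snR7-L overlapped snR6 in wild type. U1 was above U2, RPR1 and NME1 in the deletion strain and below all 3 in wild type. The shortest RNAs, U4, U5 and U6 at 112 to 214 nt, had the lowest levels after TLC1, and recovery of RNAs of that size was not tested.

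**Figure D1:**
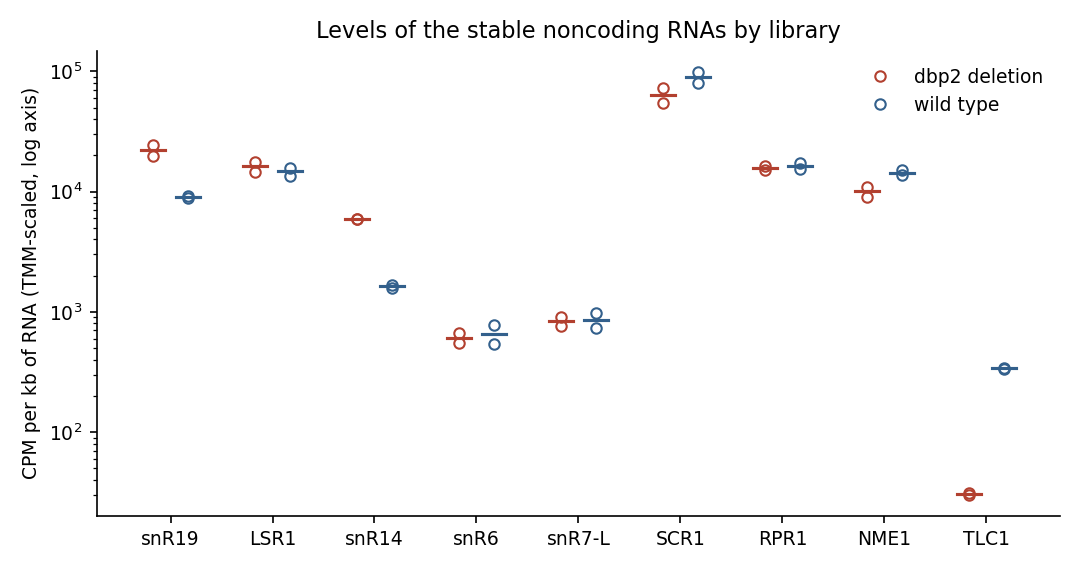
Levels of the 9 RNAs with counts, in CPM per kb of RNA on a log axis; open circles are libraries (red, dbp2 deletion; blue, wild type) and bars are means of 2. U4 (snR14) and U1 (snR19) sit higher in both deletion libraries, TLC1 sits about a factor of 11 lower, and the circles of snR6, snR7-L, LSR1 and RPR1 overlap between strains.

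Of the 10 RNAs, 9 had enough counts to be tested, and 4 passed an adjusted p of 0.05 (edgeR's quasi-likelihood test), 2 higher and 2 lower in the deletion strain. Over all 6124 features tested, 41.9% passed, 21.2% higher and 20.7% lower, and the share among these RNAs was near that. The median log2 fold change of the 9 was -0.06, against 0.01 for all features. U4 and U1 rose, TLC1 fell to 9.07% of its wild-type level, and NME1 fell to 69.8%. By polymerase, 4 of 6 polymerase II transcripts and 0 of 3 polymerase III transcripts passed, a difference that was not tested. The polymerase III calls depended on the setting and went in both directions. Under library totals RPR1 passed as higher. With scaling on protein-coding rows, at equal depth and with no filter, SCR1 passed as lower. With abundance-dependent offsets 2 of 3 passed, both higher. Of the polymerase II transcripts, 3 were higher and 1 lower under library totals and also with the offsets, and NME1 did not pass in either.

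U4 rose 3.62-fold. The row snR14 had 954 and 941 CPM in the deletion libraries, against 268 and 255 CPM in the wild-type libraries. The groups did not overlap, and the gap between libraries of a strain was at most 0.07 on the log2 scale. On the log2 scale the difference was 1.86 (SE 0.18, adjusted p = 1.22e-04), and it passed under each of the 12 alternative settings, between 1.84 and 2.40. Its neighbours on the chromosome, both on the same strand, were TMA20 (541 bases away, log2 fold change -0.58, adjusted p = 0.0569) and SEC3 (221 bases away, 0.26, adjusted p = 0.350).

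U1 rose 2.43-fold. The row snR19 (chromosome XIV, 230105 to 230672) had 11335 and 13733 CPM in the deletion libraries, against 5051 and 5262 CPM in the wild-type libraries. Both deletion libraries lay above both wild-type libraries, and the deletion libraries differed from each other more than the wild-type ones did. The log2 fold change was 1.28 (SE 0.16, adjusted p = 4.35e-04), and it passed under each of the 12 alternative settings, from 1.14 without deletion 3 to 2.14 with offsets that vary with abundance. Its neighbours SSU72 (-0.35, adjusted p = 0.272) and POP1 (0.06, adjusted p = 0.831), which encodes an RNase P and MRP protein, did not pass.

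U2, the longest spliceosomal RNA, did not pass. LSR1 (chromosome II, 680688 to 681862) had 20879 and 17245 CPM in the deletion libraries, against 15981 and 18625 CPM in the wild-type libraries, and the groups overlapped. The fold was 1.10 (95% interval 0.859 to 1.41, adjusted p = 0.506). A rise as large as that of U1 lies outside this interval, but the interval holds for TMM scaling only. LSR1 did pass as higher when libraries were scaled by their totals (log2 fold change 0.58, adjusted p = 0.00365) and with abundance-dependent offsets (1.06, adjusted p = 0.00176). Both values lie above the upper end of the interval, 0.498 on the log2 scale, so the interval cannot exclude rises of that size. Under the same settings U1 had larger values, 1.73 with library totals and 2.14 with the offsets.

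U6, the pairing partner of U4, overlapped between the strains. The row snR6 had 74.6 and 61.7 CPM in the deletion libraries, against 86.8 and 60.3 CPM in the wild-type libraries. The fold was 0.928 (interval 0.652 to 1.32, adjusted p = 0.729). The gap between the wild-type libraries, 0.53 on the log2 scale, was the widest of any of the 9 RNAs within wild type, although the smallest count, 658, carries a counting error of only 3.90%.

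For U5 the row snR7-L had 194 and 164 CPM in the deletion libraries, against 208 and 158 CPM in the wild-type libraries. The fold was 0.977 (interval 0.704 to 1.36, adjusted p = 0.914), and the groups overlapped. The row snR7-S (chromosome VII, 939494 to 939672) had 0 counts in all 4 libraries, which allows up to 0.0736 and 0.0996 CPM in the deletion libraries and 0.327 and 0.275 CPM in wild type, from 3 counts per library, by counting error only. All 179 bases of the short form lie within the 214 bases of the long form, as the sequence above shows, so no read can belong to the short form alone. The sources used here do not say how reads that fit both rows were counted. The row snR7-L may therefore hold both forms, or only reads that reach its last 35 bases, and the U5 level is uncertain.

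SCR1, the most abundant of these RNAs, was lower in both deletion libraries but did not pass. It had 38148 and 28243 CPM in the deletion libraries, against 51674 and 41671 CPM in the wild-type libraries (chromosome V, 441987 to 442508, plus strand). The groups did not overlap, and the fold was 0.711 (interval 0.538 to 0.941, adjusted p = 0.0521). The call sat at the threshold: it was gained without deletion 2 (log2 fold change -0.72, adjusted p = 4.68e-04), with scaling on protein-coding rows (adjusted p = 0.0338), at equal depth (0.0335) and with no filter (0.0282). With abundance-dependent offsets the direction turned, to a log2 fold change of 0.50 (adjusted p = 0.0293).

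The RNAs of the paired endonucleases gave different values. NME1 (chromosome XIV, 585587 to 585926, plus strand) had 3071 and 3743 CPM in the deletion libraries, against 5093 and 4668 CPM in the wild-type libraries, and fell to 0.698 of the wild-type level (log2 fold change -0.52, SE 0.17, adjusted p = 0.0334). RPR1 (chromosome V, 117667 to 118035, minus strand) had 5580 and 6002 CPM in the deletion libraries, against 5691 and 6367 CPM in the wild-type libraries. Its groups overlapped, with a fold of 0.961 (interval 0.756 to 1.22, adjusted p = 0.786). The call of NME1 was lost without deletion 2 (adjusted p = 0.205), wild type 1 (0.125) or wild type 2 (0.0991) and under library totals (-0.06, adjusted p = 0.775), and its direction turned with abundance-dependent offsets (0.27, adjusted p = 0.249). RPR1 passed as higher under library totals (0.39, adjusted p = 0.0481) and with those offsets (0.76, adjusted p = 0.00795).

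TLC1 showed the largest difference of the 9 RNAs. The telomerase RNA (chromosome II, 307587 to 308887, plus strand, 1301 nt) had 39.3 and 40.6 CPM in the deletion libraries, against 445 and 436 CPM in the wild-type libraries. In raw counts these were 1603 and 1221 in the deletion strain, against 4082 and 4764 in wild type, although the deletion libraries were the deeper ones. Libraries of a strain lay within 0.04 of each other on the log2 scale. The difference was -3.46 on the log2 scale (SE 0.20, adjusted p = 8.17e-06), or 11.0-fold lower, and it passed under each of the 12 alternative settings, between -3.49 and -3.01. Of all 6124 features tested, 23 had a lower log2 fold change. In these bulk samples, less RNA per cell and fewer cells with the RNA cannot be told apart.

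Neither the genes beside TLC1 nor the 6 listed genes of telomerase proteins and telomere end binders passed. The snoRNA gene snR161, 241 bases to the left on the opposite strand, had 383 and 422 CPM in the deletion libraries, against 446 and 415 CPM in wild type (log2 fold change -0.10, adjusted p = 0.688). CSG2, 193 bases to the right on the opposite strand, had a log2 fold change of -0.32 (adjusted p = 0.183). Among 6 genes of telomerase proteins and telomere end binders, 0 passed in edgeR's quasi-likelihood test, where 2 had an unadjusted p below 0.05, and 1 passed in DESeq2 and in edgeR's exact test. EST2, the reverse transcriptase, had 16.8 and 19.0 CPM in the deletion libraries, against 12.2 and 14.7 CPM in wild type (0.41, adjusted p = 0.212). YKU70, a subunit of the Ku dimer that binds TLC1, lay at the threshold (-0.62, adjusted p = 0.0504), and it passed under 5 of the 12 alternatives, edgeR's exact test (adjusted p = 0.0394) among them. Under library totals 3 of the 6 passed as higher, EST2 (0.86, adjusted p = 0.0178), the end-binding protein gene CDC13 (0.97, adjusted p = 0.00979) and the Ku gene YKU80 (1.04, adjusted p = 0.00741), and under no other setting did any of these 3 pass.

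**Figure D2:**
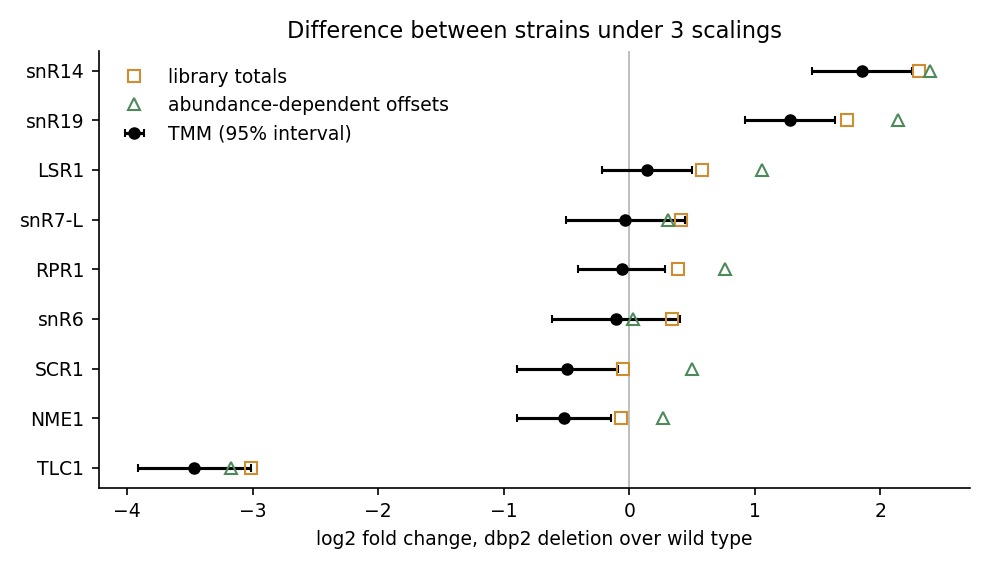
Log2 fold change of each RNA, dbp2 deletion over wild type; black points with 95% intervals are the TMM-scaled fit, squares are scaling by library totals and triangles are abundance-dependent offsets. U4 (snR14) and U1 (snR19) stay above 0 and TLC1 stays below -3 under all 3, whereas SCR1 and NME1 lie below 0 with TMM and above 0 with the offsets.

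Ratios of counts within a library are the same under any scaling by 1 factor per library, whereas the abundance-dependent offsets change them. Counts of U4 were 12.8 and 15.2 times those of U6 in the deletion libraries, against 3.09 and 4.23 times in the wild-type libraries. That is a 3.86-fold higher ratio, with no overlap. Counts of U1 were 0.543 and 0.796 times those of U2 in the deletion libraries, against 0.316 and 0.283 times in wild type, a 2.2-fold higher ratio. Counts of RPR1 were 1.82 and 1.60 times those of NME1 in the deletion libraries, against 1.12 and 1.36 times in wild type, which also did not overlap. The row snR7-L was 2.61 and 2.65 times snR6 in the deletion libraries, against 2.40 and 2.62 times in wild type, and these overlapped, as did the ratio of LSR1 to snR6. Counts of SCR1 were 511 and 457 times those of snR6 in the deletion libraries, against 596 and 691 times in wild type, a ratio lower by a factor of 0.754 with no overlap. With the offsets this order turned, as SCR1 had a log2 fold change of 0.50 and snR6 one of 0.032. With 2 libraries against 2, an exact permutation test cannot go below 1 in 3, so no p is given for the ratios. As a share of the counts of the 10 RNAs, TLC1 made up 0.0490% and 0.0578% in the deletion libraries, against 0.527% and 0.563% in wild type, and snR14 made up 1.19% and 1.34% against 0.318% and 0.329%.

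**Figure D3:**
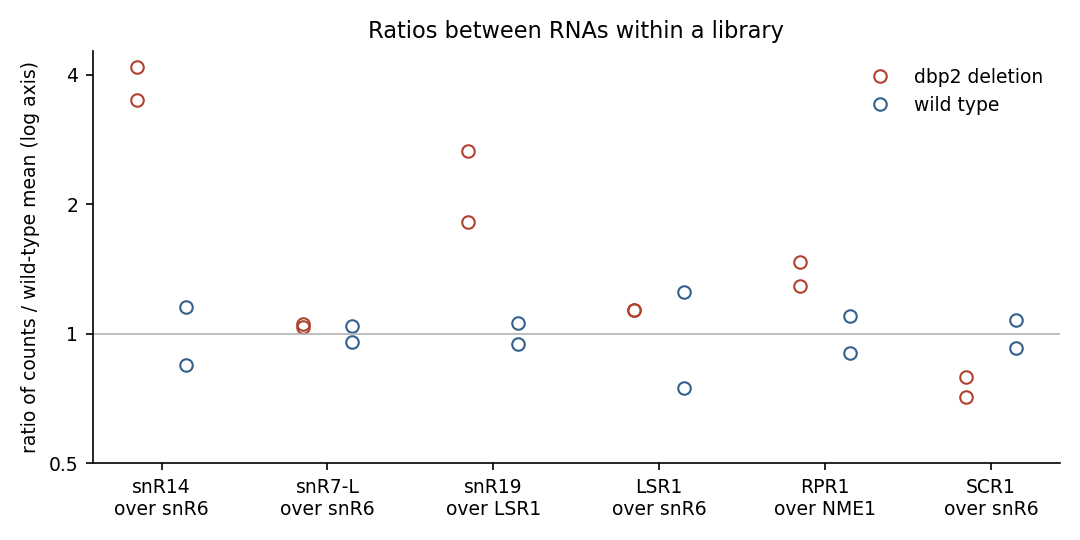
Ratio of the counts of a pair of RNAs in each library, divided by the mean ratio of the wild-type libraries, on a log axis (red, dbp2 deletion; blue, wild type). U4 over U6 (snR14 over snR6) and U1 over U2 (snR19 over LSR1) are higher in both deletion libraries, and U5 over U6 (snR7-L over snR6) overlaps.

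Rows of other stable RNAs were called lower more than higher. Of 68 snoRNA rows tested, 41 fell and 5 rose, with a median log2 fold change of -0.81. Under library totals 32 were lower and 14 higher (median -0.35), and with abundance-dependent offsets 25 were lower and 13 higher (median -0.11). Of 239 nuclear tRNA rows 143 fell and 2 rose (median -1.54). Under library totals 114 were lower and 7 higher, and with the offsets 173 were lower and 1 higher. The tRNA rows together took 0.540% and 0.805% of the deletion libraries, against 0.831% and 0.794% of the wild-type libraries. These shares of raw counts overlapped, while the median over rows under library totals, which also carry no TMM factors, was -1.08. On that scale the median over rows does not describe the class total. The class total was not compared on the TMM scale, so the overlap does not extend to it. The lowest snoRNA value was -3.44, for snR8. TLC1, at -3.46 with an SE of 0.20, lay below it by less than that SE, so the 2 were not set apart. In all, 10 tRNA rows lay below TLC1. The value of snR14 was above those of all 68 snoRNA rows, and 1 tRNA row lay above it, while 1 snoRNA row and 2 tRNA rows lay above snR19. Over all 6124 features, 370 lay above snR14 and 716 above snR19. Whether recovery of structured RNAs differed between the strains' libraries was not tested. Many tRNA rows have near-identical copies, and their values are uncertain.

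For each RNA that passed, the features with the most similar pattern were those with the smallest root-mean-square distance between log2 CPM profiles over the 4 libraries, each centred on its own mean. For TLC1 these were the snoRNAs snR8 (distance 0.11, log2 fold change -3.44) and snR71 (0.19, -3.39) and the tRNA row tY(GUA)J2 (0.17, -3.16). For NME1 they were the snoRNA snR40 (0.018, -0.55) and the protein genes APE4 and RBK1. For snR14 they were KIN82 (0.034, 1.94), YNL050C and GSP2, and for snR19 they were ATG42 (0.024, 1.26), MAL11 and DCS1.

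Genes of the protein partners and processing factors moved in both directions. Of 87 such genes, 14 passed as higher and 9 as lower in the deletion strain (26.4%, against 41.9% of all features), with a median log2 fold change of 0.16. Under library totals the split was 41 higher and 6 lower, and with abundance-dependent offsets 7 higher and 15 lower, and without deletion 2 it was 6 higher and 8 lower, so no direction holds for these genes as a whole.

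The Sm and LSm proteins form rings on the spliceosomal RNAs. Of 7 Sm genes, whose proteins ring U1, U2, U4 and U5, 2 were higher: SMD3, with 15.6 and 15.01 CPM in the deletion libraries, against 7.09 and 5.86 CPM in wild type (log2 fold change 1.24, SE 0.27, adjusted p = 0.00642), and SMX3 (0.79, adjusted p = 0.0456). SME1 had -0.52 (adjusted p = 0.0775) and passed with the offsets alone. Of 7 LSm genes, 3 were lower and 1 higher. LSM6 had 56.5 and 58.8 CPM in the deletion libraries, against 254 and 220 CPM in wild type, a 4.11-fold fall, and LSM5 fell 2.39-fold. These proteins serve both the U6 ring and the cytoplasmic ring of mRNA decay. LSM8, the subunit that only the U6 ring has, was 2.22-fold higher (1.15, adjusted p = 0.0172). The calls of SMD3, LSM5 and LSM6 held in all 12 alternatives. The call of SMX3 was lost in 6 of them, without deletion 2 (adjusted p = 0.231), deletion 3 (0.107) or wild type 1 (0.128) among them, and the call of LSM8 was lost without deletion 3 (0.109) and with abundance-dependent offsets (0.0998).

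Among U1 snRNP genes 3 of 10 were higher and none was called lower: SNP1, the yeast counterpart of U1-70K (1.13), YHC1, that of the U1 C protein (1.05), and LUC7 (0.98). All 3 lost their calls with abundance-dependent offsets (adjusted p 0.102, 0.127 and 0.145) and without deletion 2 (adjusted p 0.0642, 0.111 and 0.0890). SNP1 also lost its call without deletion 3 (adjusted p = 0.122) or wild type 2 (0.0781), YHC1 without deletion 3 (0.0554), and LUC7 without wild type 1 (0.0674). Among 11 U2 snRNP genes, LEA1, which binds a U2 stem-loop, was higher (1.05, adjusted p = 0.0159; 0.151 without deletion 2) and HSH155, a subunit that contacts the branch site, was lower (-0.64, adjusted p = 0.0222). The call of HSH155 was lost under library totals (adjusted p = 0.477) and without deletion 2 (0.116), deletion 3 (0.0878) or wild type 2 (0.0612), and that of LEA1 with the offsets (0.126). RDS3, another U2 gene, had -0.65 (adjusted p = 0.0608) and passed under 2 alternatives. Of 15 genes of the U4/U6.U5 particle only SNU66 passed, with 27.2 and 23.6 CPM in the deletion libraries, against 10.8 and 12.8 CPM in wild type (1.10, adjusted p = 0.00662), and it passed in all 12 alternatives. The splicing factor genes PRP6 (-0.45, adjusted p = 0.0832) and SAD1 (-0.46, adjusted p = 0.0854) passed under no setting.

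Of 11 genes for RNase P and MRP proteins, 3 were higher and 1 lower. POP8, which both enzymes share, had 11.98 and 11.92 CPM in the deletion libraries, against 61.5 and 58.2 CPM in wild type, a 5.01-fold fall (-2.32, SE 0.21, adjusted p = 8.67e-05), and passed in all 12 alternatives. SNM1, which only RNase MRP has, was 2.68-fold higher (1.42, adjusted p = 0.00762; 0.0774 without deletion 2), and RPR2, which only RNase P has, was 1.99-fold higher (0.99, adjusted p = 0.0126; 0.0804 with abundance-dependent offsets). Of 6 signal recognition particle genes only SRP72 passed (-0.74, adjusted p = 0.0125), a call lost under library totals (0.271), with the offsets (0.0691) and without deletion 2 (0.0682) or wild type 2 (0.0667). SRP21 had 0.76 (adjusted p = 0.0602), in the other direction, and passed under 4 alternatives, and SRP54, the particle's GTPase, had -0.42 (adjusted p = 0.108) and passed under none. Of 14 processing factors, 3 were higher and 3 lower. NAB3, an RNA-binding protein of the complex that ends short noncoding transcripts, was 2.88-fold higher and SWT21 was 2.64-fold higher, and the 3′ exonuclease gene REX1 was 2.13-fold lower (adjusted p = 9.71e-04, 0.00252 and 0.00196), each in all 12 alternatives.

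**Figure D4:**
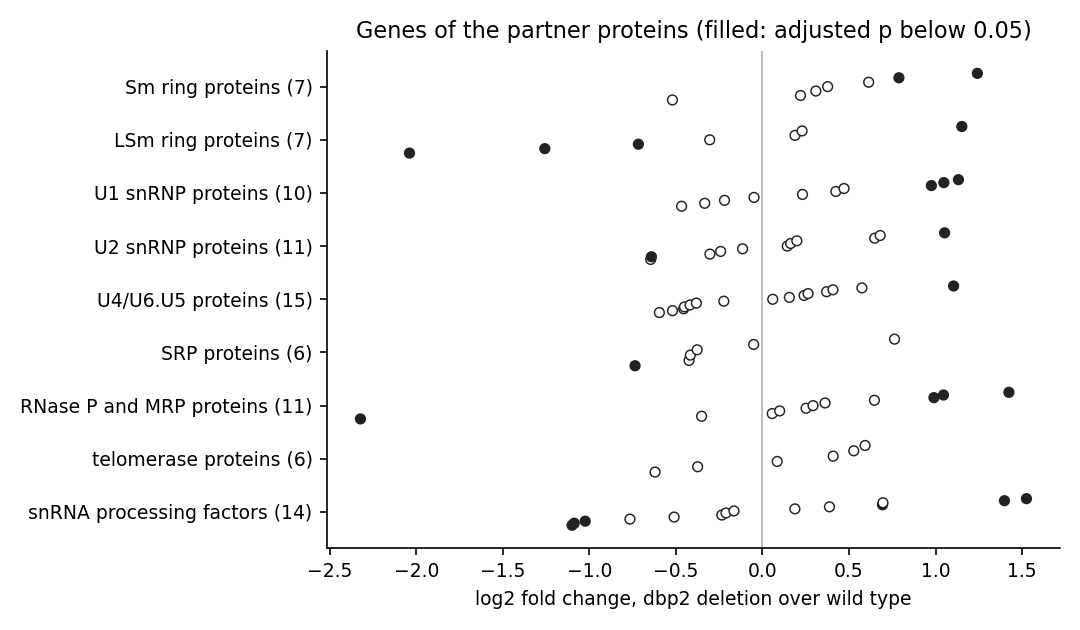
Log2 fold change, dbp2 deletion over wild type, of the 87 genes of partner proteins and processing factors, 1 point per gene, by list with the number of genes in brackets; filled points passed an adjusted p of 0.05. Filled points lie on both sides of 0 for the LSm ring, U2 snRNP, RNase P and MRP and the processing factors, and no telomerase point is filled.

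In the authors' deposited table the values of the 9 RNAs lay close to those above. The authors' deposited table gives TLC1 a log2 fold change of -3.44, snR14 1.88 and snR19 1.31, each with an adjusted p at or below 2.33e-07. NME1 is at -0.49 there with an adjusted p of 0.0693 in the authors' deposited table, and SCR1 at -0.47 with 0.106, both above 0.05. The row snR7-S is the member that the authors' deposited table does not list.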

How the data were processed

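Strand-specific total RNA libraries of both strains were counted per feature. The deposited count table holds whole-number sense-strand read counts and no scaling was applied, as their whole-number values and the file headers show. The submitters' processing notes name build R64 (sacCer3). The authors' deposited edgeR table gives a log2 fold change, a mean log2 CPM, a p-value and an adjusted p-value per feature. The sources used here name neither the aligner and counter nor the treatment of reads that fit several features.

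Counts were fitted with edgeR 4.0.16 in R 4.3.3 (filterByExpr, TMM scaling, quasi-likelihood test, Benjamini-Hochberg over 6124 features, threshold 0.05), with no covariate, after a check on simulated counts. The standard error is the log2 fold change divided by the square root of F, and 95% intervals use the fit's degrees of freedom. Alternatives were library totals, TMM on protein-coding rows, cyclic-loess offsets (limma 3.58.1, span 0.7), DESeq2 1.42.0, edgeR's exact test, no filter, equal depth by thinning, summed U5 rows, and each library left out.

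Members were matched by name, and coordinates (1-based) and sequences come from the RefSeq R64 genome and annotation. No annotated gene other than the other U5 form overlaps a member, and 955 rows without an annotation match were not examined for overlap. Named partner genes are the 3 with the smallest p in each list, plus EST2, named after its value was seen. The neighbours were also added after values were seen. Members and lists were chosen with earlier results of these data known.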

Additional observations from a re-analysis of the deposited data

How the results depend on the processing

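The calls and directions of TLC1, snR14 and snR19 held in each of the 12 alternative fits. The small differences depended on the scaling. The calls of NME1 and SCR1 also depended on single libraries, and that of SCR1 on the filter and on depth. Under library totals the median of all features moved by 0.45 on the log2 scale, with 2502 features called higher and 583 lower (1301 and 1268 with TMM), 4 members higher and 1 lower, a member median of 0.39, and 41 partner genes higher. There snR6 turned to 0.34, snR7-L to 0.41 and RPR1 to 0.39. With abundance-dependent offsets 5 members were higher and 1 lower, the member median was 0.50, and 7 partner genes were higher and 15 lower. There snR6 turned to 0.032, snR7-L to 0.31, SCR1 to 0.50, RPR1 to 0.76 and NME1 to 0.27. At a mean CPM of 3000 or more those offsets rest on 45 features, 5 of them members. Leaving out 1 library gave 1 to 2 members lower and 6 to 16 partner genes higher, and moved the log2 fold change of LSR1 between -0.0041 and 0.29, of snR6 between -0.31 and 0.17, of snR7-L between -0.18 and 0.17, and of RPR1 between -0.14 and 0.066. A strain left with 1 library was assumed to vary like the other. Without rows of ribosomal RNA, tRNA and mitochondrial features, the members' share of raw counts was 9.80% and 9.25% in the deletion libraries and 7.45% in wild type 1. Summing the U5 rows changed no value, since 1 of them is at 0. No paired analysis was made, since no pairing of libraries between the strains was found in the labels. The count columns of the strains share only 1 replicate number. The labels and the count columns number the deletion replicates differently, so these numbers were used as names only.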
